A study of Oryctolagus cuniculus with 4 samples.

Results

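The 37 mitochondrially encoded features were examined in spatial transcriptomes of rabbit supraspinatus muscle. They were chosen as the features in the last 60 rows of the gene table whose Ensembl identifier number lies within 40 of that of ND1, and they are 37 of 21139 features. The table names 13 of them, which are the protein genes ND1 to ND6 and ND4L of respiratory complex I, CYTB of complex III, COX1, COX2 and COX3 of complex IV, and ATP6 and ATP8 of ATP synthase. The other 24 carry an identifier only. Their place in the table and their identifier numbers put them in this set, and no names were assigned to them.

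Sections came from the posterior distal belly of the supraspinatus of skeletally mature female New Zealand White rabbits. There was 1 section for each of 4 conditions, namely freshly frozen healthy muscle, healthy muscle after 6 years of frozen storage, and muscle taken 2 or 16 weeks after tenotomy and kept equally long. Tenotomy, the surgical release of the tendon, served as a model of rotator cuff tear. By their labels, 1 rabbit gave both the stored healthy section (right side) and the 16-week section (left side), so this healthy muscle was the contralateral one of an operated rabbit, and 1 further rabbit each gave the fresh healthy and the 2-week section. With 1 section per condition no test was possible. Between the stored healthy and 16-week sections animal and length of storage were the same, but side, section and condition cannot be told apart. In the other comparisons the animal cannot be told apart from section and condition either, nor from storage where fresh muscle is compared. Intervals are at 95%, except where a group holds very few spots and for differences of medians, whose bounds combine the 95% bounds of both medians. Those of shares, levels and ratios cover counting error, and those of medians and of their differences describe the spread over spots of 1 section, which are not replicates.

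The mitochondrion keeps a small circular genome of its own, which codes for core subunits of the respiratory chain and ATP synthase together with the ribosomal and transfer RNAs needed to translate them. Most subunits of the same complexes are coded in the nucleus and imported. Most mitochondrial messengers carry poly(A) tails and can therefore be captured by the oligo-dT on a Visium slide. Whether all of them, the sparse ND6 among them, were captured equally well was not tested. Slow oxidative fibers are known for a high content of mitochondria and fast glycolytic fibers for a lower one, with species and muscle setting the size of the gap.

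Each Visium spot counts unique molecular identifiers (UMIs), that is captured molecules, and a spot usually holds several fibers and the cells between them. The sections had 1950 (fresh healthy), 2440 (stored healthy), 854 (2-week) and 1726 (16-week) spots and between 4079313 and 12536450 UMIs. Muscle markers were plentiful in every section, but fiber types differed. In fresh healthy, stored healthy, 2-week and 16-week muscle, 5 fast muscle markers stood at 841.4, 452.9, 1356 and 212.6 and 8 slow muscle markers at 414.8, 1000, 476.9 and 836.9 UMIs per 10000 UMIs of the other, non-mitochondrial genes. Connective tissue markers (9 of 13 listed genes had a feature) stood at 27.8 in fresh healthy, 84.6 in stored healthy, 204 in 2-week and 128 in 16-week muscle on the same scale, with FMOD at 0 in the 2-week section. Adipose markers (6 of 12, with LEP at 0 everywhere but the other 5 detected) stood at 6.98, 6.09, 9.85 and 22.02, macrophage markers (10 of 10) at 0.824, 3.55, 3.06 and 6.71, markers of regenerating fibers (6 of 9, with MYMX at 0 in both healthy sections) at 1.18, 12.4, 8.61 and 31.5, vessel wall markers (4 of 5) at 5.92, 7.14, 9.13 and 10.7, and the single blood marker at 0.112, 0.118, 0.0481 and 0.258, in the same order. The 4 sections together used 2931 spot barcodes, of which 512 occurred in all of them, because a barcode marks a position on the array and not a cell.

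Mitochondrial transcripts took up nearly the same part of the UMIs in both healthy sections and a smaller part after tenotomy. The 37 features held 49.3% of all UMIs in fresh healthy muscle (interval 49.264 to 49.338) and 49.2% in stored healthy muscle (49.190 to 49.245). They held 33.8% in 2-week muscle (33.768 to 33.860) and 34.6% in 16-week muscle (34.557 to 34.642). The healthy pair thus lay close together and both tenotomy sections lay below it. Relative to the UMIs of other genes, the sum of the 37 features was lower than in stored healthy muscle by 0.92 (log2) at 2 weeks and 0.87 (log2) at 16 weeks, a direction the same as relative to all UMIs (−0.54 and −0.51). Lower mitochondrial content of fibers, fewer fibers per spot and more RNA from other cells cannot be told apart in such sums. Fiber type and connective tissue markers differed between the sections as well, as given above. Connective tissue markers were higher in the 16-week (128) and 2-week section (204) than in fresh (27.8) and stored healthy muscle (84.6). Both kinds of markers also differed within the healthy pair and within the tenotomy pair. The order of the shares within each pair depended on the summary. As medians over spots the shares were 49.13% in fresh healthy, 50.87% in stored healthy, 32.98% in 2-week and 32.45% in 16-week muscle. Markers were therefore not matched to that order. The part of fiber type and connective tissue in the gap was not tested as a whole. In spots without any COL1A1 UMI, COL1A1 coding for a chain of fibrillar collagen, the pooled share was 49.4% in fresh healthy, 50.9% in stored healthy, 36.95% in 2-week and 36.6% in 16-week muscle, so the gap between stored healthy and tenotomy sections was present there as well. These spots still held connective tissue markers, at 24.96, 55.85, 98.06 and 91.60 UMIs per 10000 UMIs of other genes.

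The median number of mitochondrial molecules per spot followed another order than the pooled share. It had the same order as the median share over spots, which was 49.13% in fresh healthy, 50.87% in stored healthy, 32.98% in 2-week and 32.45% in 16-week muscle. The median number was 1726 UMIs in fresh healthy, 2625 in stored healthy, 1477 in 2-week and 562 in 16-week spots. Other genes had a median of 1833, 2557, 3058 and 1486 UMIs per spot in the same order. These medians of UMIs also follow how deeply each section was sequenced, which differed, and are no measure of transcripts in the tissue.

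Complex IV contributed most. COX1, COX2 and COX3, the catalytic core of cytochrome c oxidase, together held 23.5% of all UMIs in fresh healthy, 23.6% in stored healthy, 14.8% in 2-week and 16.2% in 16-week muscle. The 7 complex I genes held 8.84%, 8.17%, 6.31% and 4.91%. CYTB, the only mitochondrially encoded subunit of complex III, held 2.67%, 2.96%, 1.28% and 1.84%. ATP6 and ATP8, subunits of the membrane part of ATP synthase, held 6.75%, 6.50%, 3.94% and 4.20%. Complex III was thus lowest in the 2-week section and complex I lowest in the 16-week section. These shares count molecules caught at their 3′ end and are not levels per length. The 24 unnamed features in sum held 7.54%, 8.001%, 7.51% and 7.50%, so relative to all UMIs the gap between healthy and tenotomy sections lay in the 13 named genes, which went from 41.8% and 41.2% in the healthy sections to 26.3% and 27.1% in the 2-week and 16-week sections. The unnamed features were lower too relative to the UMIs of other genes, by 0.48 (2-week) and 0.46 (16-week) on the log2 scale, against 1.03 and 0.97 for the named genes.

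**Figure D1:**
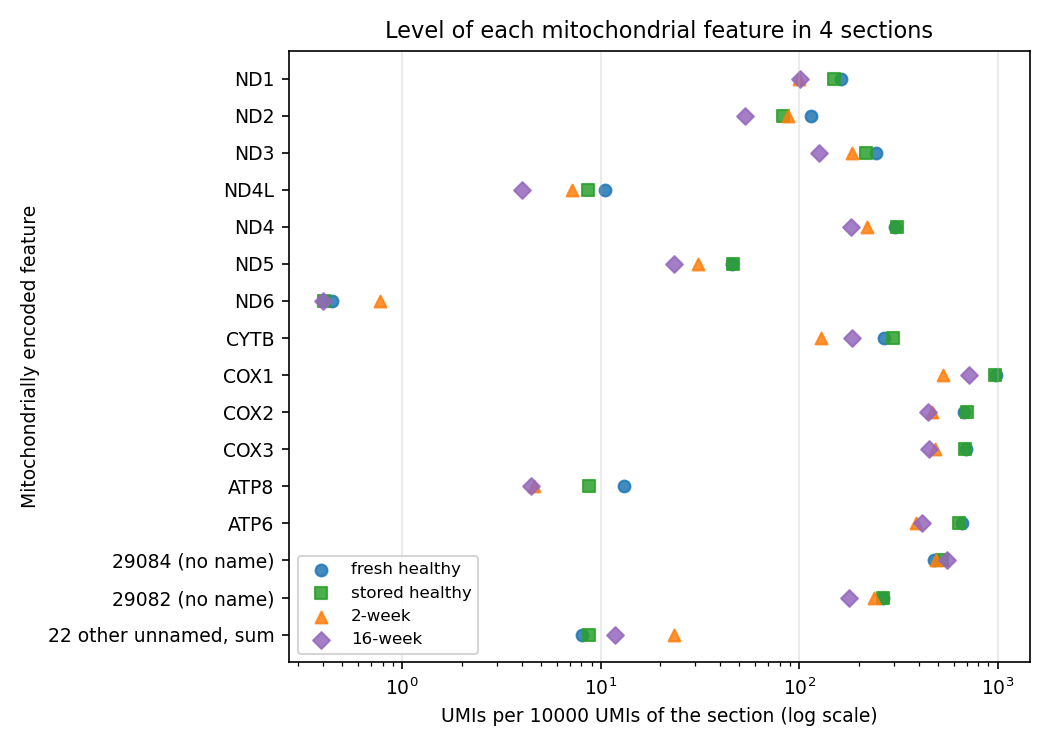
UMIs of each mitochondrial feature per 10000 UMIs of its section on a log axis, 1 symbol per section and no replicates. The 13 named genes come first, then the 2 unnamed features with most UMIs (last digits of their identifiers) and the sum of the other 22. COX1 stood at 983 and 976 in the healthy sections, 529 at 2 weeks and 717 at 16 weeks, whereas the sum of the 22 sparse unnamed features was highest in the 2-week section.

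COX1, the subunit that reduces oxygen, was the feature with most UMIs in every section. It had 689919 UMIs in fresh healthy, 1223057 in stored healthy, 215614 in 2-week and 340078 in 16-week muscle, which is 983, 976, 529 and 717 per 10000 UMIs. Both healthy sections were nearly level and both tenotomy sections lower, the 2-week one more so. CYTB had 187706, 371080, 52408 and 87336 UMIs in that order, or 267.5, 296.0, 128.5 and 184.1 per 10000. It was the named gene with the largest gap between 2-week and stored healthy muscle, at a log2 ratio of −1.2 relative to all UMIs. ND2, a proton-pumping subunit of complex I, had 80574, 104535, 36014 and 25369 UMIs, or 114.8, 83.4, 88.3 and 53.5 per 10000. ND2 was the named gene other than ND6 that was not lower in 2-week than in stored healthy muscle relative to all UMIs, at a log2 ratio of 0.08, but it was lower by 0.30 relative to the UMIs of other genes.

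ND6 is the protein gene that lies on the opposite strand from the rest of the mitochondrial protein genes. It was the sparsest named gene, with 311 UMIs in fresh healthy, 506 in stored healthy, 315 in 2-week and 189 in 16-week muscle. Its level was 0.443 (0.395 to 0.495), 0.404 (0.369 to 0.440), 0.772 (0.689 to 0.862) and 0.398 (0.344 to 0.460) per 10000 UMIs. The 2-week section stood above the other 3, whose intervals overlapped. ND6 was seen in 13.9% of fresh healthy, 18.0% of stored healthy, 28.6% of 2-week and 9.73% of 16-week spots, and these percentages also follow the depth of the spots.

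A feature was counted as higher or lower between 2 sections when its share of all UMIs differed at least 1.5-fold, among features with at least 200 UMIs in the 2 sections together. The comparisons with fresh healthy, 2-week and 16-week muscle below all use the 1 stored healthy section and are not independent of each other. Since the mitochondrial share was lower after tenotomy, all other genes were pushed up on this scale, by 0.38 (2-week) and 0.37 (16-week) in log2. The median gene stood at a log2 ratio of 0.51 (2-week) and 0.77 (16-week) over stored healthy muscle. Relative to the UMIs of other genes, the median of the genes outside the set was still 0.13 and 0.41, so the lower mitochondrial share was only part of it.

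Stored against fresh healthy muscle addresses whether long storage affects what is measured, although animal and storage cannot be told apart. Of 27 mitochondrial features tested, 2 were higher and 0 lower in stored muscle, against 14.2% higher and 18.2% lower of all features tested. Both were unnamed. The 13 named genes lay between −0.57 and 0.15 (log2). ATP8, at 9179 UMIs in fresh and 11016 in stored healthy muscle, had the lowest ratio (−0.57), followed by ND2 (−0.46) and ND4L (−0.28). CYTB had the highest ratio at 0.15, and the remaining 9 named genes lay within 0.17 of 0. ATP8 overlaps ATP6, and ND4L overlaps ND4, on messengers that each pair shares. How the counting divided molecules between them is uncertain, and so are the separate values of the 2 small genes.

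In 2-week over stored healthy muscle, 29 mitochondrial features were tested and 7 were lower, against a background of 3.85% lower. They were CYTB (−1.2), ATP8 (−0.92), COX1 (−0.88), ATP6 (−0.72), ND5 (−0.60), ND1 (−0.59) and 1 unnamed feature. COX2, at −0.58, lay just inside the fold. Another 11 features were higher, against a background of 43.7% higher. They were ND6 (0.94) and 10 unnamed features. By complex, the sum of complex III was lower by 1.2, of ATP synthase by 0.72, of complex IV by 0.68 and of complex I by 0.37 on the log2 scale. Relative to the UMIs of other genes each value is 0.38 (log2) lower. On that scale 13 members were lower and 9 higher, against a background of 9.04% lower and 19.3% higher.

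In 16-week over stored healthy muscle, 28 features were tested and 10 were lower, all of them named, against a background of 3.98% lower. ND4L (−1.11), ND5 (−1.0), ATP8 (−0.99), ND3 (−0.78), ND4 (−0.77), CYTB (−0.68), COX2 (−0.65), ND2 (−0.64), ATP6 (−0.63) and COX3 (−0.60) passed the fold. ND1 (−0.57), COX1 (−0.44) and ND6 (−0.02) did not. Another 4 features, all unnamed, were higher, against a background of 60.4% higher. The order differed from that at 2 weeks, with complex I lower by 0.73, complex III by 0.68, ATP synthase by 0.63 and complex IV by 0.55 on the log2 scale. Relative to the UMIs of other genes each value is 0.37 (log2) lower, and 14 members were then lower and 2 higher, against a background of 8.71% lower and 39.6% higher.

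Compared directly, the 16-week section was lower than the 2-week section in ND6 (−0.95), ND4L (−0.84) and ND2 (−0.72). These and 10 unnamed features made 13 of 26 features tested that were lower, against a background of 11.2% lower. It was higher in 1 unnamed feature, against a background of 31.4% higher. CYTB (0.52) and COX1 (0.44) were the named genes with the highest ratios, below the fold, and ND3 had a ratio of −0.54.

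**Figure D2:**
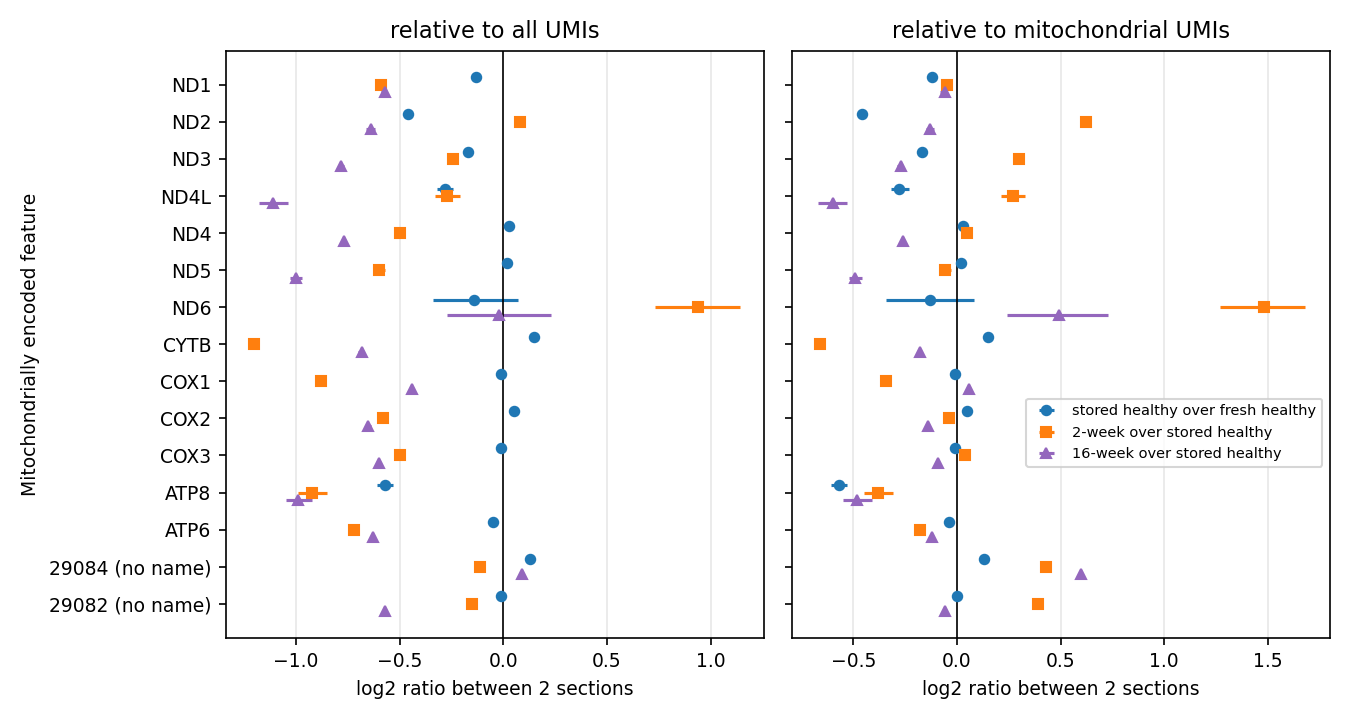
Log2 ratio between 2 sections for the 13 named genes and the 2 unnamed features with most UMIs, relative to all UMIs (left) and to mitochondrial UMIs (right), with 95% intervals of counting error as horizontal bars. Stored over fresh healthy muscle lies between −0.57 and 0.15 for named genes, while 2-week over stored healthy muscle spans −0.66 for CYTB to 1.48 for ND6 within the mitochondrial UMIs.

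The composition of the mitochondrial UMIs shows which features kept pace with the sum, free of how many other transcripts a section held. CYTB made up 5.42% of mitochondrial UMIs in fresh healthy, 6.01% in stored healthy, 3.80% in 2-week and 5.32% in 16-week muscle. COX1 made up 19.9%, 19.8%, 15.6% and 20.7%. ND2 made up 2.33%, 1.69%, 2.61% and 1.55%. The 2-week section was low in CYTB and COX1 and high in ND2, and the 16-week section was near the healthy ones in COX1.

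To set these gaps beside the variation inside a section, each share was recomputed in bins of spots by fiber type, COL1A1 and depth, each with at least 50 spots. Bins of 1 section overlap in spots and are not replicates. They pool many spots, so their ranges are narrower than the spread over single spots. CYTB lay between 3.54% and 4.27% over the 12 bins of the 2-week section, below its range in the fresh healthy (5.09% to 5.53%, 10 bins), stored healthy (5.89% to 6.24%, 14 bins) and 16-week section (5.15% to 5.55%, 13 bins). COX1 lay between 14.6% and 15.9% in 2-week bins and between 16.6% and 22.01% in those of the other sections. The ranges of ND2 did not overlap between any of the sections, although the 16-week and stored healthy ones nearly met, with 1.49% to 1.58% in 16-week, 1.59% to 1.83% in stored healthy, 2.17% to 2.38% in fresh healthy and 2.41% to 2.67% in 2-week bins. Over single spots with at least 100 mitochondrial UMIs, ND2 quartiles overlapped for 16-week (1.17% to 1.85%) and stored healthy muscle (1.48% to 1.89%). They also overlapped for fresh healthy (2.00% to 2.62%) and 2-week muscle (2.24% to 2.90%). The gap in ND2 between both healthy sections was larger than the range of bins inside each. The stored healthy and 16-week sections share an animal and were neighbors in ND2. In CYTB, however, the 16-week bins overlapped those of fresh healthy muscle, from another rabbit, and not the stored healthy ones. The part of the animal was not tested. ND3, another complex I subunit, lay between 5.10% and 5.64% in 2-week, 4.61% and 5.04% in fresh healthy, 4.17% and 4.60% in stored healthy and 3.43% and 3.85% in 16-week bins. ND5 lay between 0.568% and 0.718% in 16-week bins and between 0.854% and 1.0% in those of the other sections. Not every named gene separated sections in this way. ND1 lay between 2.74% and 3.03% in 2-week bins, overlapping stored healthy (2.99% to 3.11%) and 16-week bins (2.85% to 2.98%). ND4 in 2-week bins (6.14% to 6.80%) overlapped fresh (5.69% to 6.31%) and stored healthy bins (6.08% to 6.61%). COX2 in 2-week bins (13.1% to 14.5%) overlapped those of all other sections.

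The 2 unnamed features with most UMIs lay partly within the range of the named genes. ENSOCUG00000029084 had 337112 UMIs in fresh healthy, 659735 in stored healthy, 199101 in 2-week and 265330 in 16-week muscle and made up 9.74%, 10.7%, 14.4% and 16.2% of mitochondrial UMIs. Relative to all UMIs its 16-week level was slightly above that of stored healthy muscle (log2 ratio 0.09), but relative to the UMIs of other genes it was below (−0.28). ENSOCUG00000029082 had 186766, 332366, 97656 and 84647 UMIs and made up 5.40%, 5.39%, 7.08% and 5.16%. Its share within mitochondrial UMIs was highest in the 2-week section, with a log2 ratio of 0.39 to stored healthy muscle that lay between those of ND3 (0.30) and ND2 (0.62), and at 16 weeks its ratio equaled that of ND1 (−0.06). Over the bins, ENSOCUG00000029084 lay between 8.58% and 14.2% in fresh and 9.52% and 12.4% in stored healthy muscle. It lay between 12.6% and 16.7% in 2-week and 13.8% and 23.3% in 16-week bins, so fresh healthy bins overlapped both tenotomy sections. Bins of ENSOCUG00000029082 overlapped between all sections, with 4.71% to 7.80% in fresh healthy and 5.98% to 8.42% in 2-week muscle.

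The other 22 unnamed features were sparse. They had between 4 and 2715 UMIs each in a section and in sum 5624 in fresh healthy, 10977 in stored healthy, 9510 in 2-week and 5597 in 16-week muscle. Their sum was 0.163% of mitochondrial UMIs in fresh healthy, 0.178% in stored healthy, 0.689% in 2-week and 0.341% in 16-week muscle. The 2-week section was highest, although it had the fewest UMIs of all. Those with at least 200 UMIs in a pair of sections lay between −2.77 and 3.33 (log2) within mitochondrial UMIs for 2-week over stored healthy muscle (14 features), between −0.05 and 1.82 for 16-week over stored healthy muscle (13 features) and between −0.24 and 1.16 for stored over fresh healthy muscle (12 features). The minimum of UMIs favors features that are high in 1 of the 2 sections, so these ranges do not describe all 22.

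The largest and smallest ratio to stored healthy muscle both belonged to sparse features in the 2-week section. ENSOCUG00000029106 had 53 UMIs in fresh healthy, 92 in stored healthy, 207 in 2-week and 72 in 16-week muscle, and its 2-week level was 6.89-fold that of stored healthy muscle relative to all UMIs (log2 interval 2.43 to 3.16). ENSOCUG00000029109 had 312, 534, 17 and 277 UMIs, and its 2-week level was 0.101-fold (log2 interval −4.14 to −2.66). The 2-week section was thus the only one with few molecules of the latter. Stored over fresh healthy muscle had a log2 ratio of −0.06 for it. The 2-week section was the only one from its rabbit, so animal, section and condition cannot be told apart here. Both features were picked as extremes of the set.

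The share also varied from spot to spot. Median shares were 49.1% in fresh healthy, 50.9% in stored healthy, 33.0% in 2-week and 32.5% in 16-week spots. Single spots ranged from 20.8% to 66.4%, 15.2% to 72.3%, 11.4% to 56.3% and 5.56% to 62.1%. In the healthy sections 42.5% (fresh) and 58.1% (stored) of spots were more than 50% mitochondrial, against 1.41% at 2 weeks and 2.67% at 16 weeks. After thinning every spot to 500 UMIs, which left out 166, 60, 31 and 134 shallower spots, the SD over spots was 5.82 points in fresh healthy, 6.29 in stored healthy, 7.49 in 2-week and 10.6 in 16-week muscle. Drawing 500 UMIs at a constant share would give 2.07 to 2.24 points, so spots differed beyond counting error in every section, with the widest spread at 16 weeks.

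Fiber type was read from the share of MYH7, the slow type 1 myosin heavy chain, in the sum of MYH7 and MYH1, the fast type 2x heavy chain, in spots with at least 10 UMIs of both together. Slow spots had a MYH7 share of at least 0.8 and fast spots of at most 0.2. The median share of mitochondrial UMIs in slow minus fast spots was 6.34 points in fresh healthy muscle (−2.81 to 9.55, 10 slow and 1327 fast spots), −1.66 in stored healthy (−2.56 to −0.52, 645 and 418 spots), 13.1 in 2-week (5.01 to 15.8, 6 and 642 spots) and −0.50 in 16-week muscle (−6.54 to 2.71, 493 and 51 spots). The fresh healthy and 16-week intervals include 0. Comparing the highest with the lowest quartile of spots by MYH7 share gave 2.05 points in fresh healthy and 2.20 in 16-week muscle, and among spots without COL1A1 the 16-week value was 0.62, so the sign at 16 weeks was not kept.

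The 2-week section showed the steepest gradient. The median share was 31.4% in 642 spots with a MYH7 share under 0.2, 37.1% in 129 spots up to 0.4, 41.4% in 40 spots up to 0.6, 41.9% in 24 spots up to 0.8 and 44.5% in the 6 slow spots. The climb over the first 3 bins does not rest on the 6 slow spots. In spots without COL1A1 the slow minus fast difference was 5.89 points, from 3 slow spots at a median of 40.05%, below the 2 bins before it (44.48% in 23 and 45.28% in 8 spots). Spearman's rho between MYH7 share and mitochondrial share was 0.49 over 841 spots and 0.57 over the 276 spots without COL1A1. Spots share a library and neighboring fibers, so rho is a description.

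In stored healthy muscle, by contrast, the share was highest in mixed spots. Its median was 49.8% in fast spots, 51.8%, 51.9% and 52.1% in the 3 mixed bins and 48.2% in slow spots. Slow spots there held more COL1A1, with 49.5% of them free of it against 78.9% of fast spots. They were also deeper, at a median of 3022 against 2496 UMIs of other genes. Among spots without COL1A1 the difference was −0.11 points, and averaged within quintiles of depth it was 0.04 points, so the sign was not kept. In fresh healthy muscle the median went from 48.7% in fast to 50.9% in the bin up to 0.8 (rho 0.17, 1793 spots). At 16 weeks it went from 35.8% in fast over 31.9% in the bin up to 0.8 to 35.4% in slow spots (rho 0.02, 1426 spots).

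**Figure D3:**
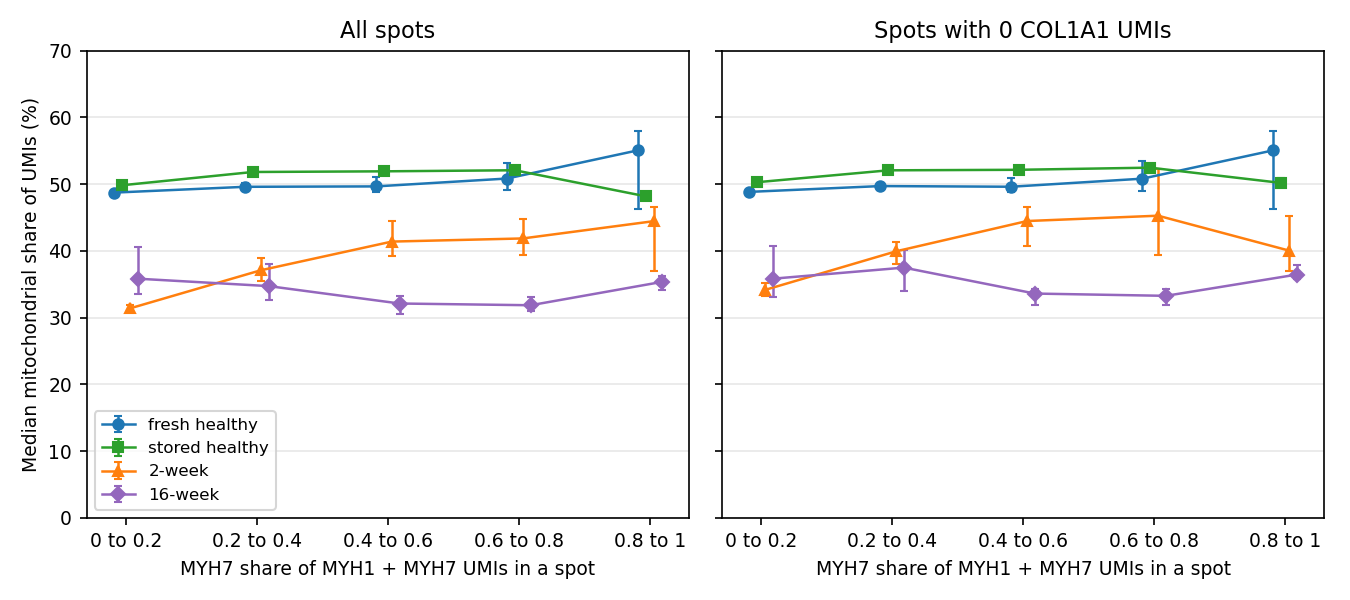
Median mitochondrial share of UMIs per spot (%) by the MYH7 share of MYH1 and MYH7 UMIs in the spot, in all spots (left) and in spots with 0 COL1A1 UMIs (right), with 95% order-statistic intervals of the median over spots. The 2-week line climbs from 31.4% to 44.5%, while the stored healthy line stays between 48.2% and 52.1%. The slow end rests on 10 spots of fresh healthy and 6 of 2-week muscle. On the right, the 2-week slow end has 3 spots, and its bar spans the lowest to the highest spot.

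Members were compared between fiber types where both kinds of spots were frequent. In slow over fast spots of stored healthy muscle, with features of at least 200 UMIs in both spot groups together, 0 of 22 members were higher and 2 lower by 1.5-fold relative to all UMIs, against 23.4% higher and 6.72% lower of all features. Within mitochondrial UMIs of the stored healthy section the 13 named genes lay between −0.46 for ND6 and 0.09 for ATP6 (log2). ND2 (−0.20) and ND5 (−0.23) were lower in slow spots, and CYTB (0.06), COX2 (0.05) and ND3 (0.07) slightly higher. The 9 unnamed features with enough UMIs lay between −0.57 and 0.08, with a median of −0.26. In the 16-week section, with 51 fast spots, 12 named genes lay between −0.52 for ATP8 and 0.14 for ND5. In the fresh healthy and 2-week sections so few spots were slow that no such count is given.

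Spots with collagen had lower shares. COL1A1-high spots, with at least 3 UMIs, differed from spots with 0 by −1.82 points in fresh healthy (−9.17 to 2.16, 5 and 1845 spots), −8.59 in stored healthy (−12.5 to −6.47, 100 and 1776 spots), −7.44 in 2-week (−9.83 to −4.21, 245 and 289 spots) and −22.1 in 16-week muscle (−23.6 to −20.5, 66 and 1344 spots). At 16 weeks the median went from 34.2% with 0 COL1A1 UMIs over 26.7% with 1, 21.2% with 2 and 12.8% with 3 to 4, to 10.3% with 5 or more, the last from 17 spots. A minimum of COL1A1 UMIs also selects deep spots, so mitochondrial molecules were compared within quintiles of spots by UMIs of other genes. In the third quintile of the 16-week section the median was 674.5 mitochondrial UMIs with 0 and 190 UMIs with at least 3 COL1A1 UMIs (250 and 23 spots). In the second quintile of the 2-week section it was 1508 and 1002 UMIs (63 and 43 spots), and in the highest 2356 and 2250 UMIs (24 and 83 spots). In the stored healthy section it was 1329 and 537 UMIs in the lowest (414 and 6 spots) and 3564.5 and 3216 UMIs in the highest quintile (238 and 62 spots). COL1A1-high spots had fewer mitochondrial UMIs in every quintile of these 3 sections but 1. The exception was the lowest quintile of the 2-week section (580 and 612.5 UMIs, 108 and 14 spots). High spots were deeper there, at 1768 against 987 UMIs of other genes. They were also deeper in the highest quintile of stored healthy (4989 against 3644) and 2-week muscle (5044 against 4523.5).

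The 16-week COL1A1-high spots were lower in each of the 12 named genes with at least 200 UMIs in both spot groups together. Relative to all UMIs the log2 ratio to spots without COL1A1 was −1.46 for COX1, −1.18 for CYTB, −1.11 for ATP6, −1.25 for ND2 and −1.72 for ND5. Within mitochondrial UMIs these genes lay between −0.41 (ND5) and 0.20 (ATP6), and 9 unnamed features between −0.68 and 0.63. Over all 13 named genes the range was −0.33 to 0.12 in the stored healthy and −0.13 to 0.17 in the 2-week section, where ND6 was highest. ND6 was not among the 12 genes of the 16-week section. For those 12 genes, 2-week over stored healthy muscle spanned −0.66 (CYTB) to 0.62 (ND2).

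Depth was measured as UMIs of other genes, because all UMIs include the mitochondrial ones. UMIs of other genes are in turn part of the total behind the share, so this sorting tends to lower the share in deep spots. The deepest minus the shallowest quintile of spots differed in median mitochondrial share by −1.13 points in fresh healthy (−2.29 to 0.32), −5.48 in stored healthy (−6.97 to −4.46), −4.62 in 2-week (−7.73 to −1.37) and 4.54 in 16-week muscle (1.73 to 7.01). With this sorting the 16-week section had the opposite sign to the stored healthy and 2-week sections. Its medians over the quintiles were 34.0%, 27.8%, 29.6%, 34.3% and 38.5%, with the lowest value in the second quintile. Spots free of COL1A1 made up 84.8% of the shallowest and 48.8% of the deepest quintile in stored healthy muscle. They made up 63.2% and 14.0% in 2-week and 87.6% and 74.8% in 16-week muscle. Detection of COL1A1 in deeper counts and tissue content were not separated here. Per 10000 UMIs of other genes, connective tissue markers stood at 87.54 in the shallowest and 118.2 in the deepest quintile of stored healthy, 236.9 and 227.4 of 2-week and 207.5 and 85.46 of 16-week muscle, so the 16-week section had fewer of them in its deep spots. In spots without COL1A1 the difference was −3.86 points in stored healthy, −5.71 in 2-week and 4.57 in 16-week muscle. Sorting spots by all UMIs instead turned the 2-week difference to 0.55 points and the fresh healthy one to 1.69 points. Spearman's rho between mitochondrial share and UMIs of other genes was −0.08 in fresh healthy, −0.39 in stored healthy, −0.19 in 2-week and 0.17 in 16-week spots. With all UMIs rho was 0.08, −0.18, 0.04 and 0.31 in the same order.

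**Figure D4:**
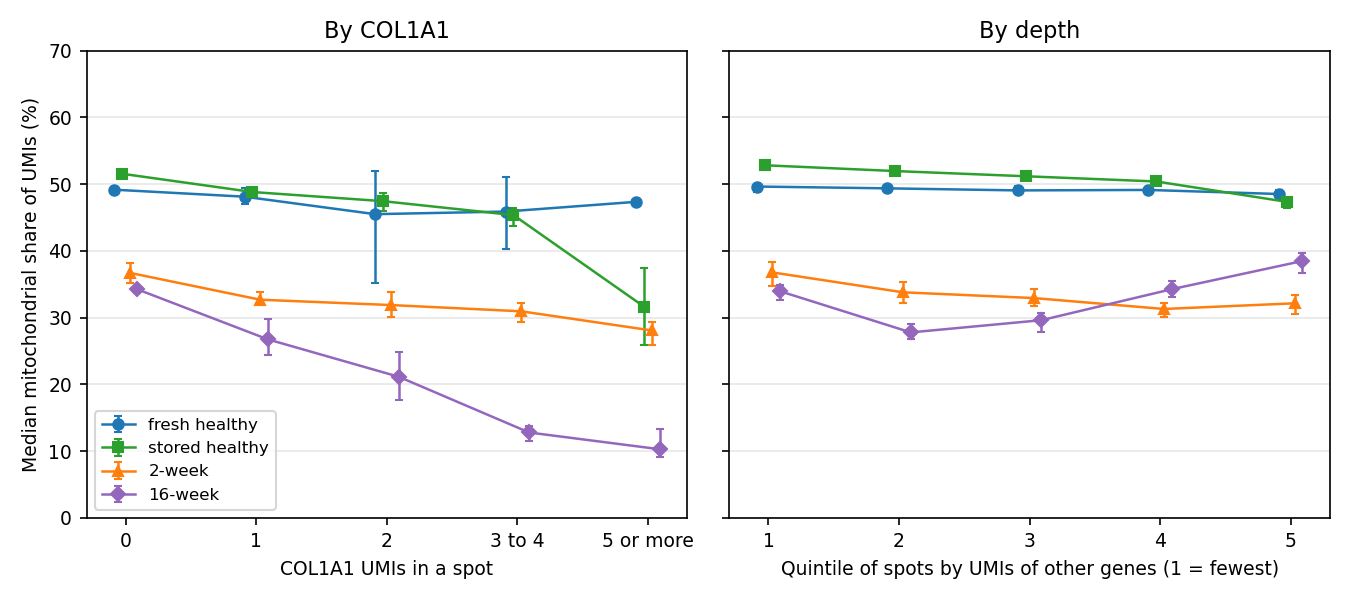
Median mitochondrial share of UMIs per spot (%) by COL1A1 UMIs in the spot (left) and by quintile of depth in UMIs of other genes (right), with 95% order-statistic intervals of the median over spots. The 16-week line drops from 34.2% to 10.3% with COL1A1 and ends at 38.5% in the deepest quintile. Fresh healthy muscle had 5 spots with at least 3 COL1A1 UMIs, too few for a 95% interval. The bars of those points span the lowest to the highest spot.

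Nuclear genes of the mitochondrion were taken from 5 lists by symbol. Of 82 listed respiratory chain and ATP synthase subunits, 26 had a feature of that name, so most of the list was not seen. These 26 together stood at 419.5 UMIs per 10000 UMIs of other genes in fresh healthy, 484.2 in stored healthy, 352.7 in 2-week and 278.8 in 16-week muscle. The nuclear subunits thus were lower in both tenotomy sections, as were the mitochondrial ones, but with the lowest value at 16 weeks. Relative to all UMIs, 0 of 26 were higher and 2 lower by 1.5-fold in 2-week over stored healthy muscle, against 43.7% higher and 3.85% lower of all features tested, with a median log2 ratio of 0.08 against 0.51 for all other genes. Relative to the UMIs of other genes 0 were higher and 7 lower, against 19.3% and 9.04% of all features, and the median was −0.30 against 0.13. At 16 weeks 0 were higher and 4 lower, against 60.4% and 3.98% of all features, with a median of −0.37 against 0.78. On the scale of other genes 0 were higher and 19 lower, against 39.6% and 8.71%, with a median of −0.74 against 0.41. Between stored and fresh healthy muscle 0 were higher and 0 lower, against 14.2% and 18.2% of all features, with a median of 0.21 against −0.05.

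The lowest ratios at 16 weeks were those of ATP5MC1, a subunit of the ATP synthase c-ring, with 29007 UMIs in stored healthy and 4688 in 16-week muscle (log2 ratio −1.23), and of COX5B, a structural subunit of complex IV, with 40068 and 7636 UMIs (−0.99). NDUFS4 (0.17) and NDUFB11 (0.12), complex I subunits, had the highest ratios relative to all UMIs, and both turn below 0 relative to the UMIs of other genes. At 2 weeks ATP5MC1 (−0.67) and COX4I2 (−0.70, 48 against 241 UMIs) were lowest and NDUFS1 (0.36) and NDUFC1 (0.29), both of complex I, highest, the last 2 below 0 relative to the UMIs of other genes. Of stored over fresh healthy ratios, NDUFC1 (−0.29) and NDUFS3 (−0.12) were lowest and UQCRC1 (0.53), of complex III, and ATP5MC1 (0.52) highest.

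The lists of factors that make and translate mitochondrial RNA were less abundant. The 36 mitochondrial ribosome genes summed to 51.7, 46.4, 39.4 and 40.6 UMIs per 10000 UMIs of other genes in fresh healthy, stored healthy, 2-week and 16-week muscle. Of 33 tested, 4 were higher and 0 lower at 2 weeks, against 43.7% and 3.85% of all features (median 0.18, or −0.20 relative to the UMIs of other genes). At 16 weeks 3 were higher and 1 lower, against 60.4% and 3.98% (median 0.22, or −0.14). The highest ratio was that of MRPL17 at 16 weeks, with 1082 against 933 UMIs (1.62). Among RNA processing genes (12 of 19 with a feature), 2 of 5 tested were higher at 2 weeks, near the 43.7% of all features, which were LRPPRC (0.67), a factor that stabilizes mitochondrial messengers, and GRSF1 (0.75), an RNA-binding protein of mitochondrial RNA granules, and 1 of 6 at 16 weeks, against 60.4%, the helicase gene SUPV3L1 (0.59). None of these 3 passed the fold relative to the UMIs of other genes. In stored over fresh healthy muscle 0 of 6 RNA processing genes tested were higher and 1 lower, against 14.2% and 18.2% of all features. It was GRSF1 (−0.66), whose 2-week level of 0.191 per 10000 UMIs lay near the fresh healthy level of 0.180. Of the list for transcription and DNA (8 of 14 with a feature), 2 genes were tested after tenotomy, TFB1M (−0.09 at 2 weeks, 0.28 at 16 weeks) and MTERF3 (0.46 and 0.07), and neither passed the fold. In stored over fresh healthy muscle 0 of 4 tested were higher and 1 lower, which was MTERF3 (−0.77), against 14.2% and 18.2% of all features. Of 8 regulators with a feature 0 had enough UMIs to be tested in any comparison.

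Across spots, nuclear and mitochondrial subunits went together. Spots of each section were sorted into quintiles by their mitochondrial share, and the 26 nuclear subunits were summed in each. In fresh healthy muscle they went from 368.9 in the lowest to 474.7 UMIs per 10000 UMIs of other genes in the highest quintile, in stored healthy muscle from 391.2 to 566.3, in 2-week from 278.4 to 417.3 and in 16-week muscle from 193.3 to 347.7. The order was the same in every step and section. Spearman's rho over spots was 0.38, 0.61, 0.65 and 0.63. Both measures are relative to a total that holds the UMIs of other genes, so a change in those moves both the same way. How far this made the relation was not tested. COL1A1 went the other way, from 15.5 to 4.41 per 10000 in 2-week and from 7.47 to 0.470 in 16-week muscle, and its part in this relation was not tested. Quintiles of nearly equal mitochondrial share differed between sections, since the highest 2-week quintile (43.3% mitochondrial) held 417.3 and the highest 16-week quintile (44.3%) 347.7 nuclear subunit UMIs per 10000.

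**Figure D5:**
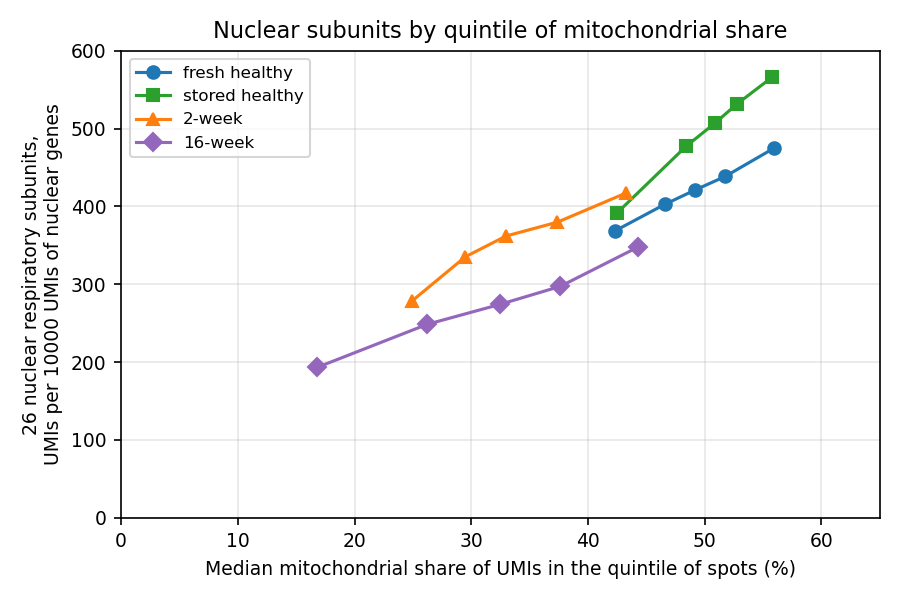
UMIs of 26 nuclear respiratory subunits per 10000 UMIs of nuclear genes against the median mitochondrial share (%) of the same spots, for quintiles of spots by mitochondrial share within each section. Every line climbs, from 193.3 to 347.7 at 16 weeks and from 391.2 to 566.3 in stored healthy muscle. Points of 1 line are spots of 1 section and not replicates.

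The genes most like the mitochondrial share across spots were sought among 164 named genes with at least 1000 UMIs in every section, by the mean over 4 sections of Spearman's rho between a gene's share of other UMIs and the mitochondrial share. Over all 164 genes this mean had a median of 0.05, with 5th and 95th percentiles of −0.17 and 0.27. The highest were STARD3 (0.37), ATP5MC1 (0.34), CKMT2, the sarcomeric mitochondrial creatine kinase (0.33), MYBPC1, the slow-type myosin-binding protein C (0.31), and COX5B (0.31). The lowest were COL1A2 (−0.42) and COL3A1 (−0.40), which code for fibrillar collagen chains, DCN, a small proteoglycan of connective tissue (−0.36), MGP, an inhibitor of calcification (−0.34), and SERPINF1, a secreted glycoprotein (−0.27). COL1A2 went from −0.17 in fresh healthy over −0.45 in stored healthy and −0.47 in 2-week to −0.60 in 16-week spots. The genes were chosen on the mean over the 4 sections, which favors a shared sign.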

How the data were processed

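Visium 3′ libraries of 4 sections were counted by the authors with Space Ranger 1.2.0 on OryCun2.0 with Ensembl annotation, per the submitters' processing notes and the study's methods. They deposited UMI counts per feature and spot under tissue, without normalization, and all spots and features were used as deposited. Groups came from the sample titles. The members and gene lists were chosen with earlier results of these data known. No spot was dropped. Spots hold several cells, so doublets were not called.

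Sums, ratios (0.5 UMI added) and medians were computed in Python 3.11.15 with numpy 2.4.6, scipy 1.17.1 and pandas 2.3.3. Shares and levels carry exact binomial (Clopper-Pearson), ratios exact conditional and medians order-statistic intervals, at 95%. With very few spots, as with the 5 COL1A1-high spots of fresh healthy muscle, the bounds of a median are the lowest and highest spot. A difference of medians combines the bounds of both medians, so its bounds are not a 95% interval of the difference. Intervals of shares, levels and ratios cover counting error within a section only, and those of medians take spots as units. Calculations were checked on simulated counts. Scales were all UMIs, UMIs of other genes and mitochondrial UMIs. Alternatives changed the scale, the minimum of UMIs, the fold, the spots, the bins of fiber type, COL1A1 and depth, and the thinning. All 13 named members were named in the text, with the 2 unnamed members with most UMIs, the 2 with extreme ratios, nuclear genes from among the 2 highest and 2 lowest ratios of each list and comparison, and the 5 genes at either end by correlation. COL1A1, MYH1 and MYH7 set the spot groups. RefSeq names did not cover the 24 unnamed members.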

Additional observations from a re-analysis of the deposited data

Results flagged for a closer look

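The slow minus fast difference in median mitochondrial share had opposite signs in 2 sections whose intervals excluded 0, at 13.08 points in 2-week and −1.66 points in stored healthy muscle. The difference between the sections was not tested, since there was 1 section of each. The 2-week value rests on 6 slow spots. Taking the highest against the lowest quartile of spots by MYH7 share gave 10.24 points in 2-week muscle, and spots without COL1A1 gave 5.89 points from 3 slow spots. The stored healthy value was 0.04 points within quintiles of depth.

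The deep minus shallow difference was 4.54 points in 16-week muscle, against −5.48 in stored healthy and −4.62 in 2-week muscle. That the sign differed between sections was not tested. Depth as UMIs of other genes is part of the total behind the share, which tends to make this difference negative. In spots with at least 500 UMIs the 16-week value was 7.91 points. Sorted by all UMIs, the 2-week value was 0.55 points.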

How the results depend on the processing

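The pooled mitochondrial share of 49.30% (fresh healthy), 49.22% (stored healthy), 33.81% (2-week) and 34.60% (16-week) became 49.13%, 50.87%, 32.98% and 32.45% as a median over spots. It became 49.00%, 50.80%, 33.00% and 31.80% as a median after thinning to 500 UMIs, an alternative chosen after seeing the data. It became 41.76%, 41.22%, 26.31% and 27.10% with the 13 named members alone, 43.77%, 43.73%, 30.12% and 29.55% without COX1, and 49.41%, 50.90%, 36.95% and 36.57% in spots with 0 COL1A1 UMIs. Under each of these the healthy sections stayed above both tenotomy sections.

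Counts of members past the fold depended on the scale. Relative to the UMIs of other genes, 13 members instead of 7 were lower at 2 weeks, against 9.04% of all features. On that scale 2 instead of 4 were higher at 16 weeks, against 39.6% of all features. Relative to the median gene, 15 were lower at 2 weeks, 19 instead of 10 lower at 16 weeks and 0 higher at 16 weeks. With a fold of at least 2, 2 were lower at 2 weeks, 2 lower and 1 higher at 16 weeks, 1 higher in stored over fresh muscle and 8 instead of 13 lower in 16-week over 2-week muscle. With a minimum of 20 UMIs, members higher went from 2 to 4 in stored over fresh, from 4 to 8 in 16-week over stored and from 1 to 3 in 16-week over 2-week muscle. With no minimum of UMIs, 4 were higher and 1 lower in stored over fresh muscle, 17 instead of 11 higher at 2 weeks, 9 higher at 16 weeks, and 4 higher and 20 lower in 16-week over 2-week muscle. The alternatives of minimum changed which features were tested, and the fold of 2 changed only the limit for a call. For the median gene, the fold of 2 and the other minimums, the share over all features is not given. These counts therefore show how the calls shift and not whether members differ from other features.

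The stored healthy slow minus fast difference of −1.66 points was −0.11 without COL1A1, 0.04 within quintiles of depth and −3.50 from pooled UMIs. It was 5.89 without COL1A1 in 2-week muscle (13.08 in all spots). By quartiles of MYH7 share it was 2.05 in fresh healthy (6.34 by the fixed limits) and 2.20 in 16-week muscle (−0.50), where it was 0.62 without COL1A1. The COL1A1 difference was −19.92 in stored healthy and −23.95 in 16-week muscle with at least 5 COL1A1 UMIs, and −4.81 and −16.98 for the highest decile by COL1A1 per UMI of other genes. By all UMIs, the depth difference was 1.69 (fresh healthy), −2.62 (stored healthy), 0.55 (2-week) and 7.99 (16-week). It was −3.86 without COL1A1 in stored healthy and 7.91 with at least 500 UMIs per spot in 16-week muscle. The cause of these shifts was not tested. Adding MYH4 to the fiber type measure, chosen after seeing the data, gave 12.91 points at 2 weeks. Weighting every spot equally moved the shares within mitochondrial UMIs by a median of 1.7% and at most 18.8% of their value.

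No paired analysis was possible because each condition had 1 section. Leaving out a replicate was not possible either, and differences between animals, sides and sections are unknown. Depth limits the 22 sparse members and ND6, and overlapping genes share messengers. The share is relative to the molecules of other genes.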
